A study of Homo sapiens with 12 samples.

Results

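Type I interferon response genes were followed in leukaemia cells exposed to selinexor, an oral inhibitor of exportin 1, the receptor that carries many proteins and some RNAs out of the nucleus. The set comprised 38 genes, chosen by symbol as interferon-stimulated genes together with their STAT and IRF regulators, out of 18304 gene symbols listed in the 2 count tables. OCI-AML2 and MOLM-13 are established human acute myeloid leukaemia cell lines. The 4 groups were OCI-AML2 cells with 200 nM selinexor, OCI-AML2 cells with vehicle (DMSO), MOLM-13 cells with 75 nM selinexor and MOLM-13 cells with vehicle (DMSO). Each group had 3 libraries, which the series text calls biologically independent, and all cells were collected after 36 h in RPMI with serum. Dose differed together with the line, so a difference between the lines in their response cannot be told apart from a difference between the doses. A culture of 1 tumour line models leukaemic cells alone, without the other blood and tissue cells that make interferon in the body.

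Type I interferons are secreted proteins that bind the receptor pair IFNAR1 and IFNAR2 and activate the kinases JAK1 and TYK2. These phosphorylate STAT proteins such as STAT2, which joins IRF9 in a complex that binds the interferon-stimulated response element in promoters. The induced genes include RNA sensors, antiviral effectors, the ubiquitin-like modifier ISG15 with its enzymes, and feedback inhibitors such as USP18. In myeloid cells the pathway also acts at a low level without infection.

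Total counts per library ran from 8650518 to 9774423 in OCI-AML2 selinexor cells, 9506571 to 11769061 in OCI-AML2 vehicle cells, 8114892 to 9711704 in MOLM-13 selinexor cells and 8160133 to 9444344 in MOLM-13 vehicle cells. At this depth a count of 0 allows a level of up to 0.249 to 0.375 counts per 1e6 counts (CPM), depending on the library, for counting error only. All 12 myeloid markers were listed in both lines. Their summed level was 14625 to 14930 CPM in OCI-AML2 selinexor cells against 3921 to 4088 CPM in OCI-AML2 vehicle cells, and 6106 to 6437 CPM in MOLM-13 selinexor cells against 3524 to 3657 CPM in MOLM-13 vehicle cells. Lymphoid markers (8 of 12 listed at most) summed to 23.1 to 27.8 CPM with selinexor against 14.6 to 16.2 CPM with vehicle in OCI-AML2, and to 16.4 to 17.1 CPM with selinexor against 14.0 to 19.6 CPM with vehicle in MOLM-13. Erythroid and megakaryocyte markers (5 of 10 listed at most) summed to 13.2 to 16.9 CPM with selinexor against 1.88 to 2.27 CPM with vehicle in OCI-AML2, and to 1.37 to 2.09 CPM with selinexor against 1.58 to 3.04 CPM with vehicle in MOLM-13. Stromal, endothelial and epithelial markers (7 of 10 listed) summed to 89.2 to 91.7 CPM with selinexor against 51.8 to 60.5 CPM with vehicle in OCI-AML2, and to 47.1 to 57.6 CPM with selinexor against 20.1 to 21.6 CPM with vehicle in MOLM-13. The part of these marker differences in any interferon gene result was not tested.

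Promoters are shown for 5 genes because they cover the patterns described below. BST2 and IFI6 rose in both lines, ISG15 rose in OCI-AML2, IFIT1 had too few counts to test, and STAT2 rose in both lines without a match to the element. The 250 bases before each RefSeq gene start (GRCh38.p14) are given 5′ to 3′ on the gene's strand. The capitals mark the core of the interferon-stimulated response element, GAAANNGAAA, searched on both strands, so that IFIT1 shows its reverse complement. The windows are chr19:17405631-17405880, minus strand for BST2, chr1:27672193-27672442, minus strand for IFI6, chr1:1013247-1013496, plus strand for ISG15, chr10:89392373-89392622, plus strand for IFIT1 and chr12:56360108-56360357, minus strand for STAT2.
BST2: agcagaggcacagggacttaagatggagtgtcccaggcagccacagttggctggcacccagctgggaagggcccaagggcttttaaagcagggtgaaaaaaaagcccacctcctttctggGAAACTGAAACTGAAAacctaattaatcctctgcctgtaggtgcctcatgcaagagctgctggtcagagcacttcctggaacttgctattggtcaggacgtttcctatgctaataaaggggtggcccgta
IFI6: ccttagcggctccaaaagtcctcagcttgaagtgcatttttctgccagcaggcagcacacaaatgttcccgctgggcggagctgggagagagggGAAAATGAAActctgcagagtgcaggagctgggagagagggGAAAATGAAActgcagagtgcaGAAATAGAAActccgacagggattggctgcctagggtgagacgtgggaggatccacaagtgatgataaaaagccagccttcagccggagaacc
ISG15: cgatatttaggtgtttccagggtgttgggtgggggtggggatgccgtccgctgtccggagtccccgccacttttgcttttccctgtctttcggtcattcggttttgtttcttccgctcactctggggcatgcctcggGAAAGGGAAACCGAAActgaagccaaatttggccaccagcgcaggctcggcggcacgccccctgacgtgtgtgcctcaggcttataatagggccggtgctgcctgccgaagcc
IFIT1: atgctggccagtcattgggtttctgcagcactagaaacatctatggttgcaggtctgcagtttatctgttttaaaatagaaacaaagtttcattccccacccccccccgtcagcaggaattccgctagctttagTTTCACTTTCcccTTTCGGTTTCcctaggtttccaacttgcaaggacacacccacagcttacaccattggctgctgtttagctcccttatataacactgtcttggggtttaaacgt
STAT2: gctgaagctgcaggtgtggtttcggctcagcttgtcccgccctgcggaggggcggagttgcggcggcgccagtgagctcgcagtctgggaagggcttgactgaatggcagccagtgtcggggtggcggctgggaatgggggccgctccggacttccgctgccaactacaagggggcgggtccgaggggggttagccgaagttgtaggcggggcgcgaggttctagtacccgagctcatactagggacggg
BST2 holds overlapping cores that begin 130 and 124 bases before the gene start, and ISG15 holds overlapping cores that begin at 113 and 107 bases. IFI6 holds 3 separate cores, at 156, 115 and 93 bases, and IFIT1 holds cores at 116 and 103 bases. Of the 38 genes, 31 were matched in the RefSeq promoter table, and 19 of these 31 promoters (61.3%) held the core within 300 bases, compared with 1255 of 35116 promoters in the whole table (3.57%). Among genes tested in OCI-AML2, 5 of 12 with the core rose and 1 fell, and 6 of 9 without it rose and 1 fell. Of all genes tested there, 31.3% rose and 31.8% fell. Among those tested in MOLM-13, 3 of 8 with the core rose and 0 fell, and 3 of 10 without it rose and 2 fell. Of all genes tested there, 31.8% rose and 31.8% fell. A match describes the letters only, and these counts carry no test.

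Expression was compared in each line between 3 selinexor and 3 vehicle libraries with the quasi-likelihood test of edgeR over all genes that passed a filter on low counts, with Benjamini-Hochberg adjusted p under 0.05 as the threshold for a change. All 38 genes had a row in the OCI-AML2 table and 35 in the MOLM-13 table. HERC5, IFI44L and EPSTI1 had none in the MOLM-13 rows analysed here. The filter removed 11 genes in each line, which left 27 tested in OCI-AML2 and 24 in MOLM-13, with 20 tested in both and 7 in neither. The 7 were IRF9, IFIT1, IFIT5, IFITM1, IFI27, IFI44L and EPSTI1.

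In OCI-AML2, 14 of the 27 tested genes rose (51.9%), where 31.3% of all tested genes rose, and 3 fell (11.1%), where 31.8% of all tested genes fell. The median log2 fold change of the 27 was 0.40, against -0.00 over all tested genes. In MOLM-13, 6 of the 24 tested genes rose (25%), where 31.8% of all tested genes rose, and 4 fell (16.7%), where 31.8% of all tested genes fell. The median of the 24 was 0.09, against 0.01 over all tested genes, and it was 0.06 without vehicle library 3, 0.16 with upper quartile scaling and 0.03 for the 30 genes of the joint fit of 12 libraries. With this filter the MOLM-13 shares therefore lay below the share of all genes in both directions. With a filter at a mean CPM of 5, 5 of 13 genes rose and 1 fell in MOLM-13, where 3396 of all genes rose and 3313 fell. The set's own share that rose thus depended on the filter. The number of all genes tested with that filter is not given here, so that share cannot be set against the share over all genes. Selinexor changed 63.1% of all genes tested in OCI-AML2 and 63.6% in MOLM-13. Counted by libraries, the 3 selinexor values lay above all 3 vehicle values for 14 genes and below them for 4 in OCI-AML2, where 33% and 33.3% of all tested genes did so. They lay above for 7 genes and below for 5 in MOLM-13, where 32.7% and 32.8% of all tested genes did so. These counts describe only genes that passed the filter. ISG20 passed it in OCI-AML2 through the vehicle libraries alone, and OASL in OCI-AML2 and RSAD2, USP18 and IFI6 in MOLM-13 reached the filter's level in every library of the higher group and in 1 library of the other. For each of these the higher group alone sufficed to pass the filter, so their calls are given as a description. In bulk RNA, a lower level in every cell and fewer cells with the RNA cannot be told apart.

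**Figure D1:**
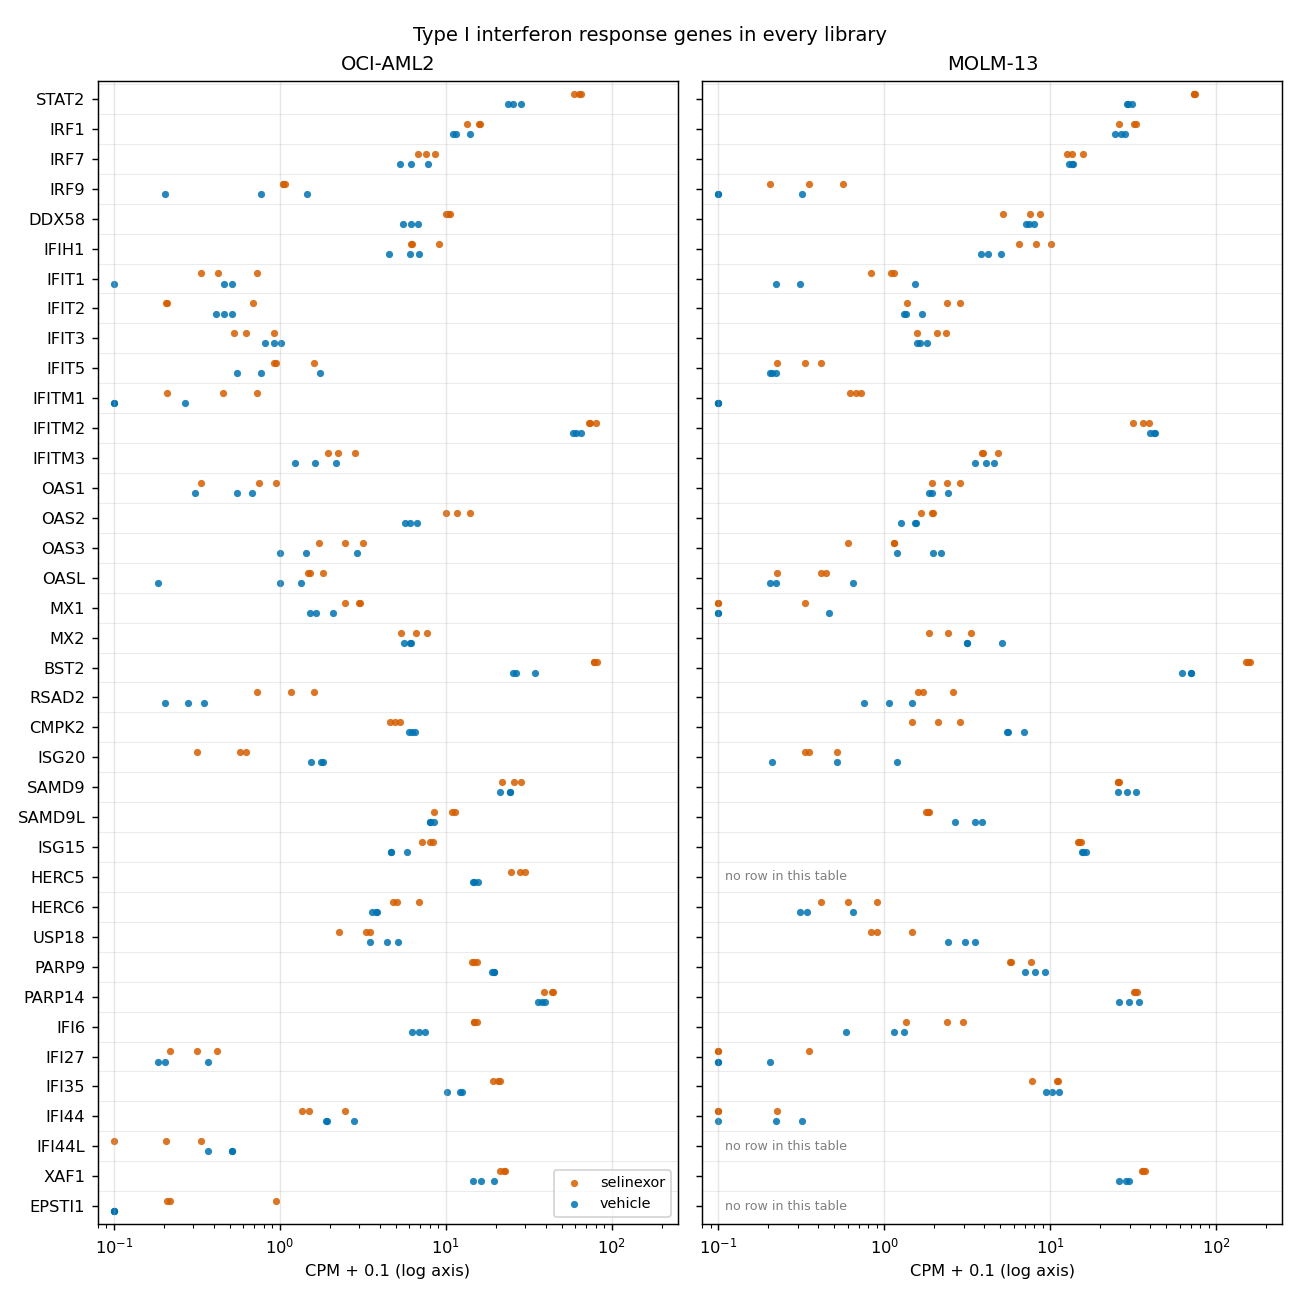
Levels of the 38 interferon response genes in TMM-scaled CPM plus 0.1, on a log axis, with OCI-AML2 on the left and MOLM-13 on the right. Each point is a library, in orange for selinexor and in blue, just below, for vehicle, and genes run down the page by role. STAT2 and BST2 show selinexor points well to the right of vehicle points in both lines, and the IFIT genes lay at or below 2.75 CPM in every library.

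Per kilobase of exon, the order of mean levels was led by BST2 at 70.6 ± 1.6 CPM per kb in OCI-AML2 selinexor cells, IFITM2 at 39.7 ± 2.1 CPM per kb in OCI-AML2 vehicle cells, and BST2 at 138 ± 3.4 CPM per kb in MOLM-13 selinexor cells and 60.1 ± 4.0 CPM per kb in MOLM-13 vehicle cells (SD, n = 3 each). BST2 and IFITM2 were the most abundant pair in all 4 groups, and their library values did not overlap with each other. IFI6 followed in OCI-AML2, at 17.2 ± 0.47 CPM per kb with selinexor and 7.85 ± 0.69 CPM per kb with vehicle. ISG15 followed in MOLM-13, at 15.7 ± 0.31 CPM per kb with selinexor and 16.7 ± 0.51 CPM per kb with vehicle. Lower in the order, neighbours mostly overlapped: XAF1, IRF7, IFI35 and IRF1 in MOLM-13 selinexor cells, at 5.48, 5.25, 4.99 and 3.87 CPM per kb, each overlapped with the next.

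STAT2 was the regulator that rose in both lines. This subunit of the interferon-activated complex, encoded at chr12:56341597-56360155 (GENCODE 29, GRCh38), was measured at 65.4, 58.8 and 62.9 CPM in OCI-AML2 selinexor libraries, against 25.2, 28.1 and 23.6 CPM in OCI-AML2 vehicle libraries. MOLM-13 cells had 73.2, 73.5 and 74.5 CPM with selinexor, against 30.9, 29.1 and 28.9 CPM with vehicle. Every selinexor library lay above every vehicle library by a wide margin in each line. The log2 fold change was 1.28 ± 0.08 in OCI-AML2 (SE, adjusted p = 2.4e-18) and 1.32 ± 0.07 in MOLM-13 (adjusted p = 9.7e-31). The difference between these responses was 0.01 on the log2 scale (95% interval -0.21 to 0.23).

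IRF1, a transcription factor that activates interferon and interferon-stimulated genes, was at 15.7, 13.3 and 16 CPM in OCI-AML2 selinexor libraries, against 11.4, 13.8 and 10.9 CPM in vehicle libraries. The groups overlapped, since 1 vehicle library exceeded the lowest selinexor library. Its log2 fold change of 0.31 ± 0.13 passed the threshold (adjusted p = 0.036). That call was lost without vehicle library 1 or 3 or selinexor library 1 or 3, at 0.24 to 0.28 with adjusted p of 0.10 to 0.15. In MOLM-13, IRF1 was at 31.9, 26.0 and 32.7 CPM with selinexor against 24.4, 28 and 26.7 CPM with vehicle, and the change of 0.19 ± 0.10 did not pass (adjusted p = 0.080). It passed there without selinexor library 2 (0.29, adjusted p = 0.013, with 0.013 to 0.30 over its 13 alternatives). It also passed there with upper quartile scaling (0.26, adjusted p = 0.016) and with a filter at a mean CPM of 5 (0.22, adjusted p = 0.033). C5orf56, on the opposite strand, shares 22.0% of the exonic bases of IRF1, and the libraries carry no strand.

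IRF7, the factor that amplifies type I interferon production, was at 8.49, 6.69 and 7.47 CPM in OCI-AML2 selinexor libraries, against 5.15, 6.06 and 7.71 CPM in vehicle libraries. MOLM-13 cells had 13.4, 15.5 and 12.5 CPM with selinexor, against 13.5, 12.8 and 13.3 CPM with vehicle. The groups overlapped in both lines, with log2 fold changes of 0.25 ± 0.18 (adjusted p = 0.23) in OCI-AML2 and 0.07 ± 0.13 (adjusted p = 0.66) in MOLM-13. IRF9, the DNA-binding partner of STAT2, had 8, 9 and 9 counts in OCI-AML2 selinexor libraries and 1, 8 and 15 counts in vehicle libraries. In MOLM-13 it had 4, 1 and 2 counts with selinexor and 0, 2 and 0 counts with vehicle. These counts were too low for the test, and IRF9 shares 48.4% of its exonic bases with AL136295.5 on the same strand.

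Each of the RNA sensors rose in 1 line. DDX58, which encodes the RIG-I sensor of viral RNA, ran from 9.92 to 10.5 CPM in OCI-AML2 selinexor libraries, against 5.38 to 6.70 CPM in vehicle libraries, a log2 rise of 0.76 ± 0.16 (adjusted p = 9.0e-05). In MOLM-13 it ran from 5.07 to 8.5 CPM with selinexor, against 7.0 to 7.90 CPM with vehicle, and the groups overlapped (-0.09 ± 0.19, adjusted p = 0.71). IFIH1, a related helicase that senses long double-stranded RNA, ran from 6.34 to 10.0 CPM in MOLM-13 selinexor libraries, against 3.72 to 4.92 CPM in vehicle libraries, a rise of 0.93 ± 0.21 (adjusted p = 6.5e-05). In OCI-AML2 the IFIH1 groups overlapped (0.28 ± 0.20, adjusted p = 0.21). Tested directly, the response of DDX58 differed between the lines by 0.89 ± 0.25 (adjusted p = 0.0042), while that of IFIH1 did not pass, at -0.60 with a 95% interval of -1.17 to -0.02 (adjusted p = 0.11).

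**Figure D2:**
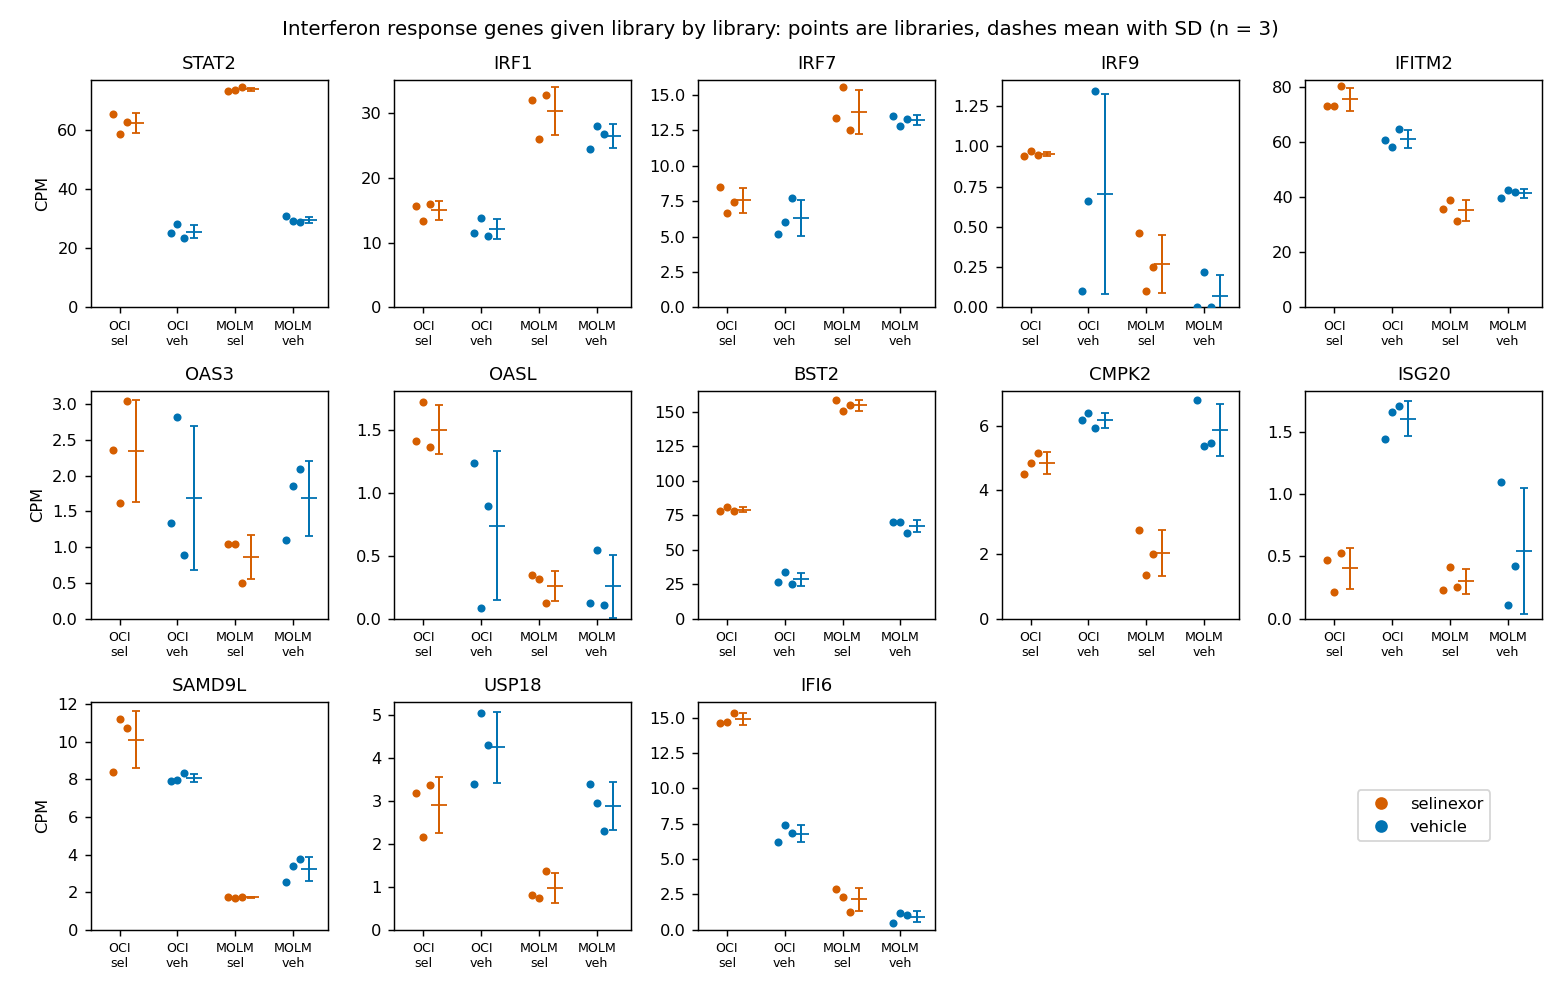
Level in TMM-scaled CPM of each gene taken by the naming rule, with points for single libraries and bars for the mean and SD of 3 libraries, cut at 0 where the SD exceeds the mean. Labels give the line (OCI for OCI-AML2, MOLM for MOLM-13) and selinexor (sel) or vehicle (veh), and the axes start at 0. STAT2 and BST2 lay higher with selinexor in every library of both lines, and IFITM2 moved in opposite directions.

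BST2 had the largest rise of the 27 genes tested in OCI-AML2. It encodes tetherin, a membrane protein that holds budding virus particles at the cell surface, at chr19:17402939-17405648. Its level was 77.7, 81.1 and 78.2 CPM in OCI-AML2 selinexor libraries, against 26.4, 34.1 and 25.4 CPM in vehicle libraries. MOLM-13 cells had 158, 151 and 155 CPM with selinexor, against 69.9, 69.9 and 62.1 CPM with vehicle. No selinexor library overlapped a vehicle library in either line. The log2 fold change was 1.46 ± 0.08 in OCI-AML2 (adjusted p = 2.8e-17) and 1.20 ± 0.05 in MOLM-13 (adjusted p = 3.5e-38).

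The other direct antiviral effectors split. CMPK2, a mitochondrial nucleotide kinase, was at 4.48, 4.85 and 5.15 CPM in OCI-AML2 selinexor libraries, against 6.18, 6.39 and 5.92 CPM in vehicle libraries, without overlap but short of the threshold (-0.35 ± 0.20, adjusted p = 0.12). The MOLM-13 level was 2.77, 1.36 and 2.0 CPM with selinexor, against 6.81, 5.36 and 5.44 CPM with vehicle, and fell by 1.53 ± 0.27 on the log2 scale (adjusted p = 4.4e-07). RSAD2, which encodes viperin, an enzyme that makes an antiviral nucleotide, lies beside CMPK2 in opposite orientation. It rose in MOLM-13 by 0.91 ± 0.40 (adjusted p = 0.041), on counts of 12 to 24 per selinexor library against 6 to 13 per vehicle library that did not overlap once scaled. That call was lost without vehicle library 1 (0.89, adjusted p = 0.092), vehicle library 2 (0.68, adjusted p = 0.19) or selinexor library 2 (0.63, adjusted p = 0.26). In OCI-AML2, RSAD2 had 6 to 14 counts with selinexor and 1 to 3 counts with vehicle and was not tested.

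SAMD9L, a growth-restricting and antiviral factor, was at 8.38, 11.2 and 10.7 CPM in OCI-AML2 selinexor libraries, against 7.94, 7.96 and 8.34 CPM in vehicle libraries. The groups did not overlap, and the change of 0.33 ± 0.16 missed the threshold (adjusted p = 0.063) but passed without selinexor library 1 (0.44, adjusted p = 0.024, with 0.024 to 0.24 over its 13 alternatives). The change also passed with upper quartile scaling (0.38, adjusted p = 0.031) and with a filter at a mean CPM of 5 (0.35, adjusted p = 0.043). In MOLM-13 it was at 1.73, 1.67 and 1.75 CPM with selinexor, against 2.55, 3.39 and 3.77 CPM with vehicle. There it fell by 0.92 ± 0.31 (adjusted p = 0.0077), a call that was lost without vehicle library 3 (-0.80, adjusted p = 0.057, with 0.0038 to 0.057 over its 12 alternatives). Its neighbour SAMD9 passed in neither line, at 0.12 in OCI-AML2 and -0.18 in MOLM-13, although in MOLM-13 it passed without vehicle library 2 (-0.27, adjusted p = 0.021, with 0.021 to 0.52 over its 13 alternatives).

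ISG20, an exonuclease that degrades viral RNA, was at 0.472, 0.216 and 0.526 CPM in OCI-AML2 selinexor libraries, against 1.44, 1.66 and 1.70 CPM in vehicle libraries. It fell by 1.96 ± 0.48 on the log2 scale (adjusted p = 0.00047), on 2 to 5 counts per selinexor library and 14 to 20 counts per vehicle library. ISG20 entered this test through the vehicle libraries alone, so its fall is given as a description. In MOLM-13 it had 2, 4 and 2 counts with selinexor and 9, 1 and 4 counts with vehicle and was not tested. MX1, a GTPase that blocks virus replication, rose in OCI-AML2 by 0.74 ± 0.31 (adjusted p = 0.035), at 2.36 to 2.94 CPM with selinexor against 1.41 to 1.97 CPM with vehicle. Without vehicle library 1 or 2 or selinexor library 2 or 3 the MX1 value was 0.63 to 0.70 with adjusted p of 0.086 to 0.11. Its relative MX2 passed in neither line (0.13 ± 0.19 in OCI-AML2 and -0.57 ± 0.29 in MOLM-13, adjusted p = 0.55 and 0.080), and in MOLM-13 it passed without selinexor library 2 (-0.84, adjusted p = 0.031, with 0.031 to 0.44 over its 12 alternatives).

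IFITM2 was the gene that changed in opposite directions. It encodes a membrane protein that hinders virus entry, and was at 73.3, 73.1 and 80.2 CPM in OCI-AML2 selinexor libraries, against 60.8, 58.3 and 64.7 CPM in vehicle libraries. The MOLM-13 level was 35.9, 38.9 and 31.2 CPM with selinexor, against 39.6, 42.7 and 41.9 CPM with vehicle. The groups did not overlap in either line. IFITM2 rose by 0.30 ± 0.06 in OCI-AML2 (adjusted p = 7.5e-05) and fell by 0.22 ± 0.08 in MOLM-13 (adjusted p = 0.015). The MOLM-13 fall was lost without vehicle library 2 (-0.20, adjusted p = 0.058), without selinexor library 3 (-0.15, adjusted p = 0.14) and under upper quartile scaling (-0.15, adjusted p = 0.10). The annotated exons of IFITM2 and IFITM1 share 351 bases on the same strand.

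IFITM1 had 5 counts in each of the 3 MOLM-13 selinexor libraries and 0 in each vehicle library. Scaled for library size, their sum was 5.12-fold above a floor of 3 counts in all for the vehicle group. That value makes no allowance for counting error in the selinexor libraries. IFITM3, which restricts virus entry from endosomes, overlapped between groups in both lines (0.48 ± 0.33 in OCI-AML2 and 0.04 ± 0.25 in MOLM-13, adjusted p = 0.21 and 0.90), and AC136475.5 shares 21.3% of its exonic bases on the opposite strand. The IFIT genes, whose proteins bind viral RNA and restrain its translation, had few counts. None of the 4 IFIT genes passed the filter in OCI-AML2, where each had at most 16 counts in any library. In MOLM-13, IFIT2 and IFIT3, with 11 to 22 and 14 to 18 counts per library, were tested and did not pass (0.64 ± 0.37 and 0.26 ± 0.36, adjusted p = 0.12 and 0.55). IFIT2 passed without selinexor library 1 (0.90, adjusted p = 0.044, with 0.044 to 0.40 over its 12 alternatives). IFIT1 had 9, 7 and 8 counts with selinexor and 1, 13 and 2 counts with vehicle in MOLM-13, so that 1 vehicle library exceeded all selinexor libraries.

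The oligoadenylate synthetases make a messenger that activates an RNA-degrading enzyme. OAS2 rose in OCI-AML2 by 0.97 ± 0.16 (adjusted p = 1.7e-06), at 9.91 to 13.8 CPM with selinexor against 5.56 to 6.60 CPM with vehicle. In MOLM-13 its groups did not overlap either, at 1.56 to 1.87 CPM with selinexor against 1.15 to 1.46 CPM with vehicle, but on 11 to 16 counts per library the change did not pass (0.39 ± 0.38, adjusted p = 0.38). OASL, a relative that acts with RIG-I, was at 1.42, 1.73 and 1.37 CPM in OCI-AML2 selinexor libraries, against 1.24, 0.083 and 0.896 CPM in vehicle libraries. Its rise of 1.08 ± 0.48 (adjusted p = 0.049) rested on vehicle library 2, which had 1 count, and without that library the value was 0.50 (adjusted p = 0.33). Leaving out any of the 3 selinexor libraries also ended the call, at 0.97 to 1.15 with adjusted p of 0.085 to 0.15. In MOLM-13, OASL had 3, 3 and 1 counts with selinexor and 1, 5 and 1 counts with vehicle.

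OAS3 was at 2.36, 1.62 and 3.05 CPM in OCI-AML2 selinexor libraries, against 1.34, 2.82 and 0.896 CPM in vehicle libraries, and the groups overlapped (0.45 ± 0.36, adjusted p = 0.28). Vehicle library 2 was the high vehicle library, and without it the value was 1.07 (adjusted p = 0.016, with 0.016 to 0.78 over its 12 alternatives). In MOLM-13, OAS3 was at 1.04, 1.04 and 0.50 CPM with selinexor, against 1.09, 1.86 and 2.09 CPM with vehicle, and was removed by the filter. OAS1 was tested in MOLM-13 only and its groups overlapped (0.22 ± 0.33, adjusted p = 0.58).

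Of the ISG15 group, 3 of 4 genes rose in OCI-AML2 and the fourth fell, where 31.3% of all tested genes rose and 31.8% fell. The HERC6 and USP18 calls among these depended on single libraries, as given below. ISG15, the ubiquitin-like modifier, ran from 7.12 to 8.26 CPM in OCI-AML2 selinexor libraries, against 4.53 to 5.72 CPM in vehicle libraries, a rise of 0.64 ± 0.19 (adjusted p = 0.0027). In MOLM-13 it ran from 14.5 to 15.1 CPM with selinexor, against 15.4 to 16.3 CPM with vehicle. The MOLM-13 groups did not overlap, yet the change of -0.09 ± 0.12 did not pass (adjusted p = 0.56). HERC5, the main human ligase for ISG15, ran from 24.5 to 30.0 CPM in OCI-AML2 selinexor libraries, against 14.5 to 15.6 CPM in vehicle libraries, a rise of 0.88 ± 0.11 (adjusted p = 1.2e-09). The related HERC6 rose in OCI-AML2 by 0.59 ± 0.22 (adjusted p = 0.019), a call that was lost without selinexor library 3 (0.41, adjusted p = 0.16, with 0.011 to 0.16 over its 12 alternatives). In MOLM-13, HERC6 had 3 to 7 counts with selinexor and 2 to 5 counts with vehicle and was not tested.

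USP18, which removes ISG15 from proteins and blocks signalling at IFNAR2, was the gene that fell in both lines. Its level was 3.19, 2.16 and 3.37 CPM in OCI-AML2 selinexor libraries, against 3.40, 5.06 and 4.30 CPM in vehicle libraries. In MOLM-13 it was 0.807, 0.730 and 1.37 CPM with selinexor, against 3.40, 2.95 and 2.30 CPM with vehicle. The groups did not overlap in either line, though in OCI-AML2 the nearest libraries were 3.37 and 3.40 CPM. USP18 fell by 1.57 ± 0.37 in MOLM-13 (adjusted p = 0.00012) and by 0.56 ± 0.25 in OCI-AML2 (adjusted p = 0.049). The OCI-AML2 call was lost without vehicle library 2 or 3 or selinexor library 1 or 2, at -0.38 to -0.63 with adjusted p of 0.063 to 0.24, and under upper quartile scaling (-0.51, adjusted p = 0.076). It was also lost with no filter (-0.57, adjusted p = 0.051), limma voom (-0.57, adjusted p = 0.059), the joint fit of 12 libraries (-0.52, adjusted p = 0.081) and DESeq2 (-0.56, adjusted p = 0.12).

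Among the remaining genes, IFI6 and XAF1 rose in both lines. IFI6, a small membrane protein that limits flavivirus replication and cell death, was at 14.6, 14.7 and 15.4 CPM in OCI-AML2 selinexor libraries, against 6.18, 7.38 and 6.81 CPM in vehicle libraries (1.12 ± 0.14, adjusted p = 4.5e-09). In MOLM-13 it was at 2.88, 2.29 and 1.25 CPM with selinexor, against 0.486, 1.20 and 1.05 CPM with vehicle (1.21 ± 0.40, adjusted p = 0.0062). The MOLM-13 groups were close, at 1.25 and 1.20 CPM for the nearest libraries, and the call was lost without vehicle library 1 (0.93, adjusted p = 0.061) or selinexor library 1 (0.95, adjusted p = 0.075). XAF1, a pro-apoptotic antagonist of the inhibitor XIAP, ran from 21.0 to 22.5 CPM with selinexor against 14.5 to 19.5 CPM with vehicle in OCI-AML2 (0.40 ± 0.11, adjusted p = 0.0018). In MOLM-13 it ran from 35.8 to 36.8 CPM with selinexor against 25.8 to 29.8 CPM with vehicle (0.37 ± 0.09, adjusted p = 0.00016). PRAL, on the opposite strand, shares 38.3% of the exonic bases of XAF1, and reads of the pair cannot be told apart without strand.

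IFI35, which binds the protein NMI, rose in OCI-AML2 by 0.80 ± 0.12 (adjusted p = 1.4e-07), at 19.1 to 20.9 CPM with selinexor against 10.1 to 12.4 CPM with vehicle. In MOLM-13 its groups overlapped, at 7.62 to 11.1 CPM with selinexor against 9.32 to 11.2 CPM with vehicle (-0.04 ± 0.16, adjusted p = 0.84). PARP9, a macrodomain protein that works with the ubiquitin ligase DTX3L, fell in OCI-AML2 by 0.37 ± 0.11 (adjusted p = 0.0036). It did not pass in MOLM-13 (-0.35 ± 0.19, adjusted p = 0.095), except without selinexor library 2 (-0.51, adjusted p = 0.037, with 0.037 to 0.33 over its 13 alternatives). PARP14, a mono-ADP-ribosyltransferase, passed in neither line, at 0.16 ± 0.08 in OCI-AML2 and 0.12 ± 0.09 in MOLM-13 (adjusted p = 0.076 and 0.27). In OCI-AML2 it passed without vehicle library 2 (0.19, adjusted p = 0.048) and without selinexor library 2 (0.21, adjusted p = 0.035), and its adjusted p ran from 0.017 to 0.24 over 13 alternatives. PARP14 also passed there with upper quartile scaling (0.21, adjusted p = 0.017), a filter at a mean CPM of 5 (0.18, adjusted p = 0.035) and the joint fit of 12 libraries (0.20, adjusted p = 0.029). IFI44 overlapped in OCI-AML2 (-0.32 ± 0.34, adjusted p = 0.42), and IFI27 had at most 3 counts in any library. EPSTI1 had 1, 1 and 8 counts in OCI-AML2 selinexor libraries and 0 in each vehicle library, with 1 library holding most of the counts. Scaled for library size, their sum was 4.02-fold above the same floor of 3 counts for the vehicle group. That value makes no allowance for counting error in the selinexor libraries.

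**Figure D3:**
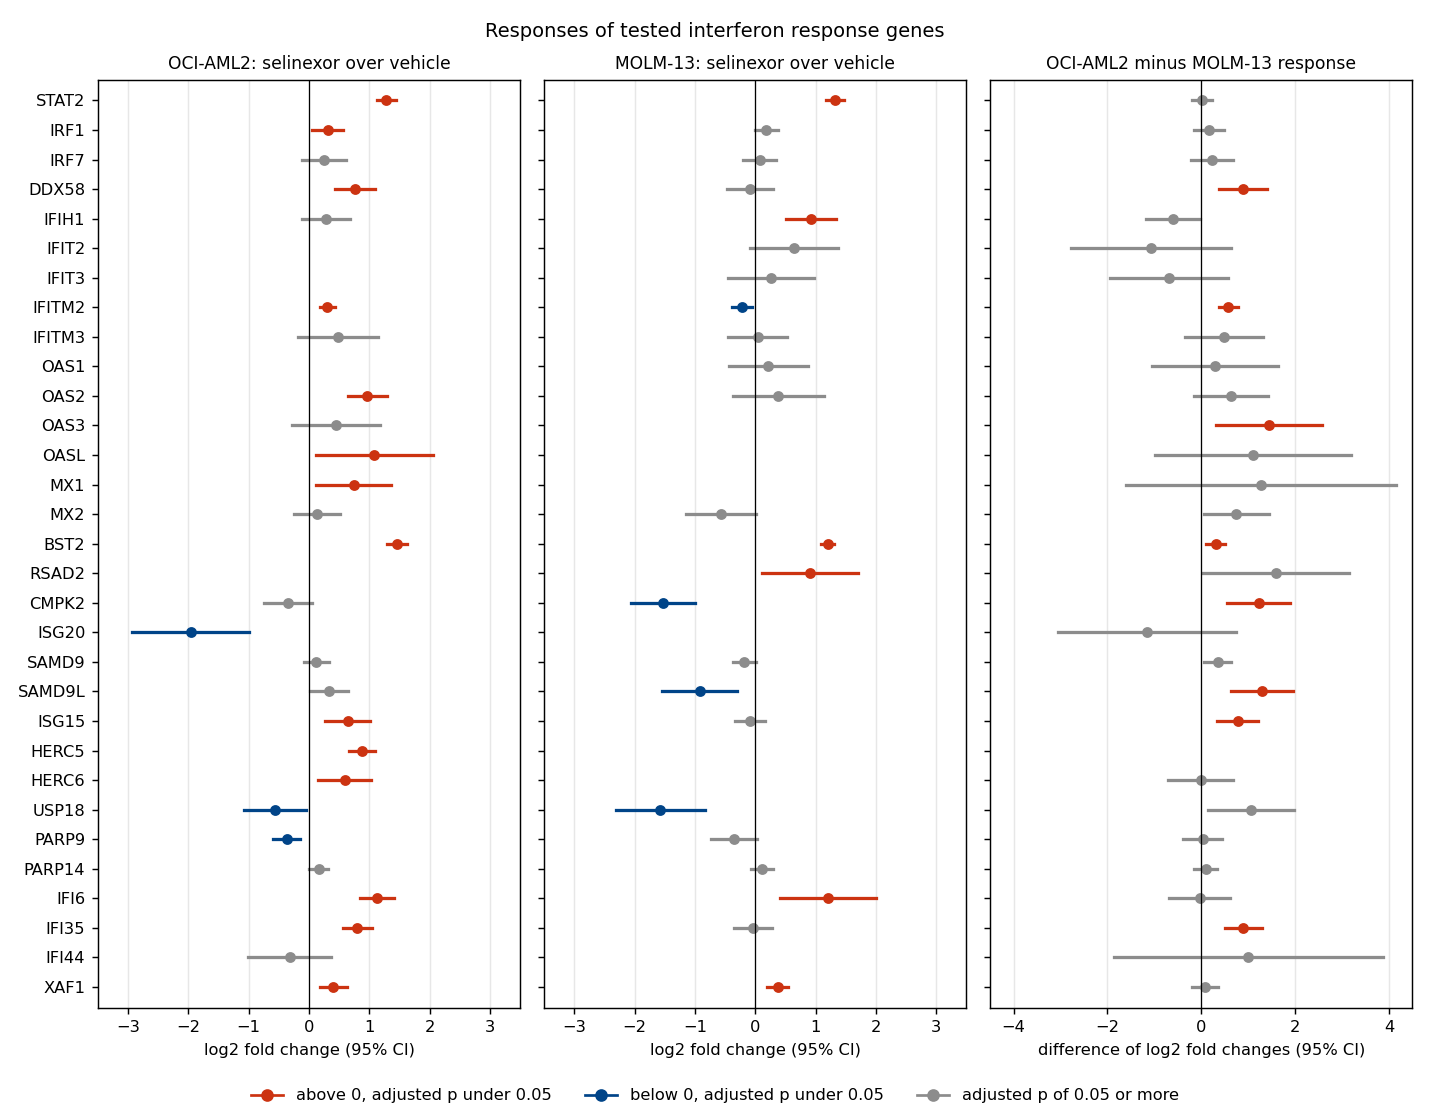
Log2 fold change of selinexor over vehicle for each tested interferon response gene in OCI-AML2 and MOLM-13, and the OCI-AML2 response minus the MOLM-13 response, with 95% intervals. Red marks values above 0 and blue values below 0 that passed the threshold, and grey marks those that did not. STAT2 lay at 1.28 in OCI-AML2 and 1.32 in MOLM-13, and the differences that passed were all above 0.

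The 4 genes that rose in both lines were STAT2, BST2, IFI6 and XAF1, USP18 fell in both, and IFITM2 was called in opposite directions. Of these, the USP18 call in OCI-AML2 and the IFI6 and IFITM2 calls in MOLM-13 depended on single libraries, as given above. In MOLM-13 the higher group alone sufficed for IFI6 and USP18 to pass the filter, so those calls are a description. A further 5 of the 20 genes tested in both lines were called in neither. Over all tested genes, 31.3% rose and 31.8% fell in OCI-AML2, and 31.8% rose and 31.8% fell in MOLM-13. The share of all genes called in both lines was not counted, so the counts for both lines are a description. Whether the responses differed between the lines was tested as an interaction over all 12 libraries on genes listed in both tables. Of all genes tested, 30.1% were called. Of the 30 interferon response genes tested, 8 had a higher response in OCI-AML2 than in MOLM-13 (26.7%, where 19% of all tested genes were higher) and 0 had a lower one (where 11.1% were lower). For a lower response, edgeR gave 1 gene, IFIH1, at an unadjusted p under 0.05, and DESeq2 and limma voom gave 0 calls each. The median difference of the 30 was 0.42, against 0.04 over all tested genes, and 24 of the 30 estimates were above 0 (22 under upper quartile or DESeq2 scaling and 20 without OCI-AML2 vehicle library 1 or 3). The median difference was 0.18 without MOLM-13 vehicle library 2, 0.26 without OCI-AML2 vehicle library 1 and 0.25 for the 16 genes with a mean CPM of at least 5. Among all genes called in this test, 63.2% were higher with TMM scaling and 50.8% with upper quartile scaling, so that the balance of directions depended on the scaling. It was 43.3% higher without OCI-AML2 vehicle library 1, 43.5% without library 2 and 44.2% without library 3 of that group, and 43.2% without MOLM-13 vehicle library 2.

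The differences that passed were 1.45 ± 0.57 for OAS3 (adjusted p = 0.045), 1.30 ± 0.33 for SAMD9L (adjusted p = 0.0014) and 1.23 ± 0.34 for CMPK2 (adjusted p = 0.0029). They were 0.89 ± 0.25 for DDX58, 0.89 ± 0.20 for IFI35 (adjusted p = 0.00022), 0.77 ± 0.22 for ISG15 (adjusted p = 0.0039), 0.58 ± 0.10 for IFITM2 (adjusted p = 6.4e-06) and 0.30 ± 0.10 for BST2 (adjusted p = 0.012). They arose differently: DDX58, IFI35 and ISG15 rose in OCI-AML2 and did not pass in MOLM-13, while CMPK2 and SAMD9L fell in MOLM-13 and did not pass in OCI-AML2. OAS3 had passed the filter within OCI-AML2 only. The OAS3 difference fell below the threshold when any of 9 libraries was left out, at 1.04 to 1.61 with adjusted p of 0.050 to 0.17. The BST2 difference did so without OCI-AML2 vehicle library 1 (0.16, adjusted p = 0.25) or 3 (0.13, adjusted p = 0.36) or MOLM-13 vehicle library 2 (0.18, adjusted p = 0.20). A lower response in OCI-AML2 was called for IFIH1 without OCI-AML2 vehicle library 1 (-0.83, adjusted p = 0.030) or OCI-AML2 selinexor library 3 (-0.81, adjusted p = 0.042).

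The lines also differed in these genes before selinexor, as 71.2% of all tested genes did. Of 30 genes tested between vehicle cells, 11 were higher in OCI-AML2 (36.7%, where 36.2% of all tested genes were higher) and 12 were lower (40.0%, where 35% were lower), close to the share over all genes. OCI-AML2 vehicle cells had more IFI6 (log2 difference 2.82 ± 0.28), HERC6 (3.36 ± 0.43) and OAS2 (2.12 ± 0.27). They had less ISG15 (-1.69 ± 0.15), BST2 (-1.26 ± 0.07), IRF1 (-1.16 ± 0.11), IRF7 (-1.09 ± 0.16), OAS1 (-2.21 ± 0.46) and RSAD2 (-2.41 ± 0.64). Each of these passed the threshold, with adjusted p from 1.1e-24 for BST2 to 0.00057 for RSAD2. The filter of this fit took all 12 libraries. Within a single line, HERC6, MX1, IFI44, ISG20, OASL and OAS3 passed in OCI-AML2 only, and OAS1, RSAD2, IFIT2 and IFIT3 in MOLM-13 only. OASL and OAS3 were not called between vehicle cells. Each of the others entered the comparison through the line where it was higher, and its difference or call is a description. HERC6 had 36 to 45 counts per OCI-AML2 vehicle library and 2 to 5 per MOLM-13 vehicle library. OAS1 had 2 to 7 counts per OCI-AML2 vehicle library and 15 to 22 per MOLM-13 vehicle library, and RSAD2 had 1 to 3 counts per OCI-AML2 vehicle library and 6 to 13 per MOLM-13 vehicle library. MX1 had 15 to 22 counts per OCI-AML2 vehicle library and 0 to 3 counts per MOLM-13 vehicle library. IFI44 had 20 to 26 counts per OCI-AML2 vehicle library and 0 to 2 counts per MOLM-13 vehicle library.

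Upstream of these genes, none of the 21 interferon ligand symbols was among the rows analysed here. Of 11 receptor and JAK-STAT genes, 9 were tested in each line, and 5 rose in each (55.6%), 0 fell in OCI-AML2 and 1 in MOLM-13 (11.1%), with medians of 0.19 and 0.23. Over all tested genes 31.3% rose and 31.8% fell in OCI-AML2, and 31.8% rose and 31.8% fell in MOLM-13, which holds for the lists that follow as well. IFNGR1 was the gene that fell in MOLM-13 (-0.20 ± 0.07, named after its value was seen), and in OCI-AML2 it was lower at an unadjusted p under 0.05 (-0.13 ± 0.06, adjusted p = 0.065). STAT3, a factor used by many cytokines, rose by 0.31 ± 0.05 in OCI-AML2 and 0.38 ± 0.04 in MOLM-13. IFNAR1, which encodes a receptor chain, was at 0.01 ± 0.07 in OCI-AML2 (adjusted p = 0.93) and rose by 0.42 ± 0.07 in MOLM-13 (adjusted p = 1.7e-07), a difference of -0.36 ± 0.10 (adjusted p = 0.0025). IFNAR2 rose in OCI-AML2 by 0.25 ± 0.09 (adjusted p = 0.016), a call lost without vehicle library 1 or 3 or selinexor library 2 or 3 (0.18 to 0.22, adjusted p 0.057 to 0.13), and did not pass in MOLM-13 (0.09 ± 0.11). AP000295.1 shares 44.2% of the exonic bases of IFNAR2 on the same strand, and IL10RB-DT 39.1% on the opposite strand.

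The kinase JAK1 passed in neither line (0.04 ± 0.07 in OCI-AML2 and 0.06 ± 0.07 in MOLM-13). TYK2 rose by 0.23 ± 0.05 in MOLM-13 and by 0.19 ± 0.07 in OCI-AML2 (adjusted p = 0.012), where the groups overlapped and the call was lost without vehicle library 1 (0.13, adjusted p = 0.11) or selinexor library 1 (0.15, adjusted p = 0.096) or 2 (0.17, adjusted p = 0.060). The interferon gamma receptor chain IFNGR2 rose by 0.38 ± 0.07 in OCI-AML2 and 0.34 ± 0.08 in MOLM-13.

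Among 12 negative regulators, 1 rose and 3 fell of 11 tested in OCI-AML2 (9.09% and 27.3%), and 4 rose and 3 fell of 12 tested in MOLM-13 (33.3% and 25%, near the 31.8% of all tested genes in each direction), with medians of 0.06 and -0.05. The phosphatase genes PTPN1 and PTPN11 fell in both lines, by 0.30 ± 0.06 and 0.38 ± 0.04 in OCI-AML2 and by 0.31 ± 0.07 and 0.25 ± 0.04 in MOLM-13. PTPN6, which encodes the blood cell phosphatase SHP-1, rose by 0.25 ± 0.04 in OCI-AML2 and 0.39 ± 0.04 in MOLM-13. CISH, a cytokine-induced SOCS family inhibitor, rose in MOLM-13 by 1.00 ± 0.09 (adjusted p = 1.2e-17). In OCI-AML2 it was at 0.29 ± 0.15 (adjusted p = 0.080), and without vehicle library 3 it passed (0.44, adjusted p = 0.018, with 0.018 to 0.43 over its 13 alternatives). CISH also passed there with upper quartile scaling (0.35, adjusted p = 0.038) and the joint fit of 12 libraries (0.34, adjusted p = 0.025).

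Of 21 nucleic acid sensing genes, 9 rose and 4 fell of 17 tested in OCI-AML2 (52.9% and 23.5%, against 31.3% and 31.8% of all tested genes), and 7 rose and 3 fell of 14 tested in MOLM-13 (50% and 21.4%, against 31.8% each way), with medians of 0.22 and 0.15. MAVS, the mitochondrial adaptor of RIG-I, rose by 0.63 ± 0.06 in OCI-AML2 and 0.63 ± 0.05 in MOLM-13. TRIM25, a ubiquitin ligase linked to RIG-I activation, rose by 0.52 ± 0.04 in OCI-AML2 and 0.72 ± 0.05 in MOLM-13. IRF3, the factor that switches on interferon beta, rose in OCI-AML2 by 0.21 ± 0.06 (adjusted p = 0.0021) and fell in MOLM-13 by 0.23 ± 0.06 (adjusted p = 0.0011), a difference of 0.49 ± 0.09 (adjusted p = 5.6e-06), and BCL2L12 shares 19.3% of its exonic bases on the opposite strand. IRF8, a myeloid interferon regulatory factor, rose by 0.22 ± 0.04 in OCI-AML2 and 0.75 ± 0.03 in MOLM-13. TLR8, an endosomal RNA receptor of myeloid cells, rose by 4.04 ± 0.23 in OCI-AML2 (adjusted p = 4.3e-19). TLR8 was not tested in MOLM-13, so its response cannot be compared between the lines.

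**Figure D4:**
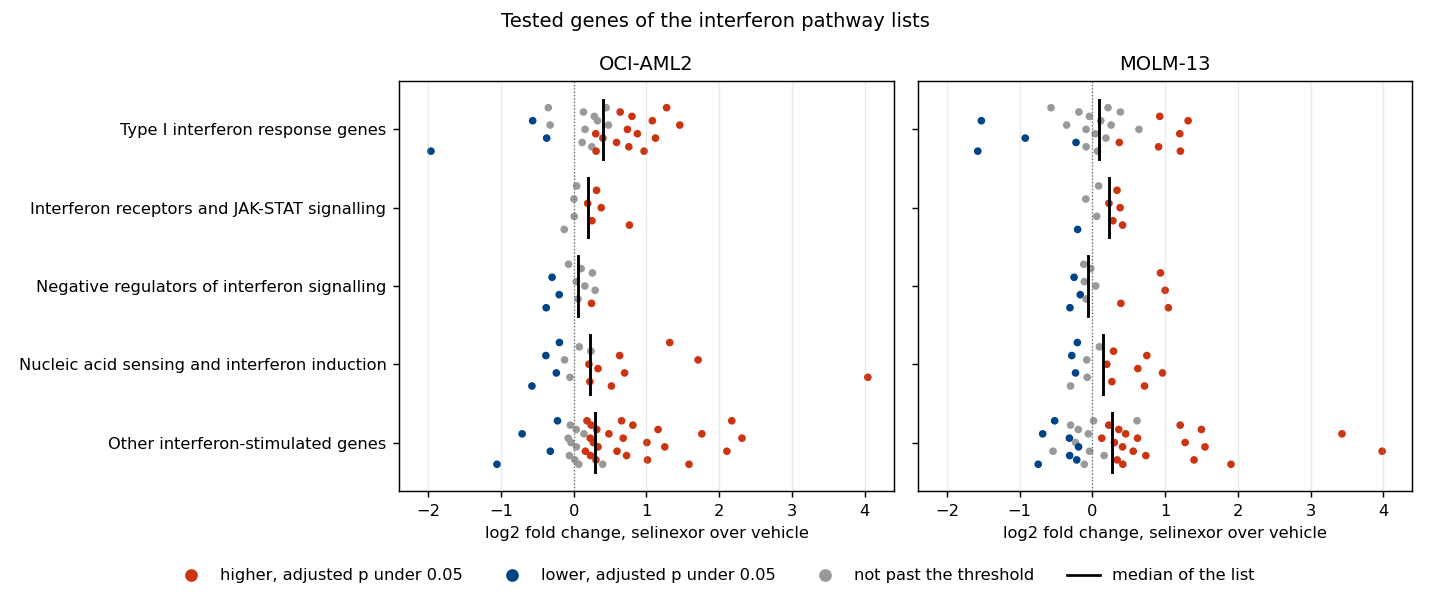
Log2 fold change of selinexor over vehicle for every tested gene of the interferon response set and 4 other pathway lists in OCI-AML2 and MOLM-13, with a bar at each list's median. The medians of the interferon response genes were 0.40 in OCI-AML2 and 0.09 in MOLM-13, and those of the other interferon-stimulated genes were 0.29 and 0.27.

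A wider list of 50 other interferon-stimulated genes had 24 that rose and 4 that fell of 38 tested in OCI-AML2 (63.2% and 10.5%), and 19 that rose and 7 that fell of 36 tested in MOLM-13 (52.8% and 19.4%). The shares over all tested genes were 31.3% and 31.8% in OCI-AML2 and 31.8% each in MOLM-13. The medians were 0.29 and 0.27. TRIM22, an antiviral ubiquitin ligase that is also induced by p53, rose by 2.31 ± 0.05 in OCI-AML2 and 3.43 ± 0.05 in MOLM-13. TDRD7, which inhibits virus-induced autophagy, rose by 1.58 ± 0.07 in OCI-AML2 and 1.50 ± 0.08 in MOLM-13. SAMHD1, a nucleotide hydrolase abundant in myeloid cells, rose by 1.01 ± 0.05 in OCI-AML2 and 1.55 ± 0.09 in MOLM-13. UBA7, the activating enzyme for ISG15, rose by 2.17 ± 0.13 in OCI-AML2 (adjusted p = 2.7e-18) and 1.91 ± 0.10 in MOLM-13 (adjusted p = 6.4e-33). UBE2L6, the conjugating enzyme for ISG15 and chosen after its values were seen, rose by 1.01 ± 0.09 in OCI-AML2 and 1.40 ± 0.28 in MOLM-13. In MOLM-13 these rises of the ISG15 enzymes stood beside an ISG15 level that did not pass the test.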

How the data were processed

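RNA of 12 cultures was sequenced in paired ends after poly(A) selection and without strand information, per the labels' protocols. Reads were processed with STAR, hg38 and R 3.6.1, per the submitters' processing notes. How reads were counted, and over which annotation, is not given in the sources used here. Counts were deposited as whole numbers by gene symbol, in a separate table for each line, and the normalized signal tables and the MOLM-13 table of log2 fold changes and p-values that the authors also deposited give no value printed here. A table gives the line and a column's letter the treatment, but no column is numbered, and so a library's number is its place among the columns of its group and pairs nothing.

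CPM scaled by TMM, log2 fold changes and p-values were then obtained in edgeR 4.0.16 (R 4.3.3). Genes were kept with filterByExpr (minimum count 10, minimum total count 15), fitted with robust quasi-likelihood dispersion, and called at a Benjamini-Hochberg adjusted p under 0.05 over 12086 genes for OCI-AML2 and 11807 for MOLM-13. The standard error is the log2 fold change divided by the square root of F. The interaction of line and treatment, and the comparison of vehicle cells, used 12 libraries and 12530 genes that passed the filter among 15615 listed in both tables. Values per kilobase use the union of GENCODE 29 exons. The procedure was tested on simulated counts. Each p-value sets a difference between groups against the spread of libraries within the groups of the fit, estimated with information shared across genes.

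Values in every library are given for the transcription factors, for genes called with an absolute log2 fold change of at least 1, called in opposite directions, or called in the interaction with an absolute difference of at least 1. Named pathway genes are IFNAR1, IFNAR2, JAK1, TYK2 and IRF3 and up to 3 per list by smallest p in each line; 1 pathway gene that the rule takes is not reported here. The 38 genes, the pathway lists and these rules were chosen with earlier results of these data known. Alternatives were DESeq2 size factors, upper quartile scaling, no filter, a filter at a mean CPM of 5, DESeq2 1.42.0, limma voom (limma 3.58.1), all 12 libraries in 1 fit, and each library left out in turn. Promoter sequences come from the RefSeq table for GRCh38.p14.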

Additional observations from a re-analysis of the deposited data

Results flagged for a closer look

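For 8 interferon response genes the selinexor response differed between the lines by the interaction test of edgeR (quasi-likelihood, Benjamini-Hochberg adjusted p under 0.05, 3 libraries a group). The OCI-AML2 response minus the MOLM-13 response was 1.45 on the log2 scale for OAS3, 1.30 for SAMD9L, 1.23 for CMPK2, 0.89 for DDX58, 0.89 for IFI35, 0.77 for ISG15, 0.58 for IFITM2 and 0.30 for BST2. OCI-AML2 received 200 nM and MOLM-13 75 nM selinexor, so line and dose cannot be told apart in any of them. The smallest groups in counts were those of OAS3, with 4 to 10 counts per MOLM-13 selinexor library, and the filter within MOLM-13 had removed it. The OAS3 call was lost with DESeq2 size factors (adjusted p = 0.052), upper quartile scaling (0.056), limma voom (0.057) and DESeq2 (0.11). The BST2 call was lost with upper quartile scaling (adjusted p = 0.0501) and DESeq2 (0.061). Both also depended on single libraries, as given above.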

How the results depend on the processing

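No paired analysis was possible because the columns of the count tables carry no replicate numbers. Across the alternatives no value of an interferon response gene that passed the threshold changed sign. The number that rose in OCI-AML2 was 14, 16 with upper quartile scaling and 10 with DESeq2 (10 to 14 over left-out libraries), and the number that fell was 3 (2 to 3). In MOLM-13, 6 rose, 7 with upper quartile scaling and 5 with DESeq2 (4 to 6 over left-out libraries). The number that fell there was 4, and 3 with either of these (3 to 6 over left-out libraries). With a filter at a mean CPM of 5, fewer genes were tested. Of 19 in OCI-AML2, 13 rose and 1 fell, and of 13 in MOLM-13, 5 rose and 1 fell. Over all genes this filter gave 3474 higher and 3423 lower calls in OCI-AML2, and 3396 and 3313 in MOLM-13. The number of all genes tested with it is not given here. Between vehicle cells 6 genes of the set were higher and 7 lower in OCI-AML2. In the interaction, leaving out a library gave 6 to 10 genes with a higher and 0 to 1 with a lower response in OCI-AML2, and over all genes 1450 to 2236 higher and 1228 to 2084 lower calls, against 2380 and 1388 with all libraries. The cause was not tested. DESeq2 did not call HERC6, IRF1, MX1, OASL or USP18 in OCI-AML2, RSAD2 or IFITM2 in MOLM-13, or OAS3 and BST2 in the interaction. Depth limits the genes with few counts, and 7 of the 38 were tested in neither line.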
